A study of Mus musculus with 9 samples.

Results

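Of the 34745 genes in the table, 6 are described here, matched by gene name across 9 libraries of mouse spinal cord. They are the chloride importer Slc12a2 (NKCC1), the potassium-chloride exporters Slc12a5 (KCC2), Slc12a4 (KCC1) and Slc12a7 (KCC4), and the kinases Wnk1 (WNK1) and Stk39 (SPAK). Each name matched 1 row, and all 6 genes passed the filter on low counts that left 16494 genes for testing. The study took spinal cord from mice with a complete transection at the ninth thoracic level, at 0, 3 and 21 days, with 3 libraries per day. The day 0 group is titled N, which the labels do not explain, and it was taken as day 0 because the series names no other time. The labels do not state strain, sex, age, any sham operation or which stretch of cord was taken. Nor do they say whether each library is a different mouse, so p-values reflect how far these libraries spread, and that spread may be technical in part.

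Chloride moves through these proteins in opposite directions. NKCC1 carries chloride into the cell together with sodium and potassium, whereas the KCC proteins carry it out with potassium, so their balance helps set the chloride gradient on which GABA-A and glycine receptors act. KCC2 is the exporter of mature neurons, while KCC1 and KCC4 are made by many cell types, including non-neuronal ones. WNK kinases respond to chloride and osmotic state and activate SPAK and its relative OSR1, which phosphorylate NKCC1 and the KCCs, activating NKCC1 and inhibiting the KCCs. Lower KCC2 after cord injury has been linked in rodents to weaker inhibition, spasticity and pain. Only transcripts were measured here, so neither protein amount nor phosphorylation is known.

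The promoters of the exporters are shown because these genes moved in opposite directions after transection. In RefSeq on mouse build GRCm38.p6 each window runs from 250 bases before to 50 bases after a start, and the CACGTG letters of the E-box, bound by USF factors, are in capitals. Slc12a5 has 2 annotated starts, which correspond to the KCC2a and KCC2b forms, and counts per gene cannot separate them. The windows are chr2:164960596-164960895 (+ strand) and chr2:164967738-164968037 (+ strand) for Slc12a5, chr8:105966066-105966365 (- strand) for Slc12a4 and chr13:73763410-73763709 (+ strand) for Slc12a7, the first of 2 overlapping windows of that gene. Windows of 5 of the 6 genes were searched.
Slc12a5, upstream start: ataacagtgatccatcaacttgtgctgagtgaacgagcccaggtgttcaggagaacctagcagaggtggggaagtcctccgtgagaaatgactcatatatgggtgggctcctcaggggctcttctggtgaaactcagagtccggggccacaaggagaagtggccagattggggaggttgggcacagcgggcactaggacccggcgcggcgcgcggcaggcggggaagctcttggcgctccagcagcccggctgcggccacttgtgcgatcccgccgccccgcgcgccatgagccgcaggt
Slc12a5, downstream start: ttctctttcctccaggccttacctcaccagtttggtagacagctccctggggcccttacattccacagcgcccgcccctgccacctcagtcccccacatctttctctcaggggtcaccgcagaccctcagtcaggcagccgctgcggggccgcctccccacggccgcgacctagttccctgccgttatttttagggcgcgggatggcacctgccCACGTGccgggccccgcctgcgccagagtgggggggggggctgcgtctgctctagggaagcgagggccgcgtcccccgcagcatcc
Slc12a4: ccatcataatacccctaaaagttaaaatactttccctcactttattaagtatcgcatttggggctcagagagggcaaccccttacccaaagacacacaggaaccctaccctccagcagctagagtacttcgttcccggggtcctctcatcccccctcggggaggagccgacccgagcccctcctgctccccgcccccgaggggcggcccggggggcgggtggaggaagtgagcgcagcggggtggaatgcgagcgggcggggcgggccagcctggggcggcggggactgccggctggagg
Slc12a7: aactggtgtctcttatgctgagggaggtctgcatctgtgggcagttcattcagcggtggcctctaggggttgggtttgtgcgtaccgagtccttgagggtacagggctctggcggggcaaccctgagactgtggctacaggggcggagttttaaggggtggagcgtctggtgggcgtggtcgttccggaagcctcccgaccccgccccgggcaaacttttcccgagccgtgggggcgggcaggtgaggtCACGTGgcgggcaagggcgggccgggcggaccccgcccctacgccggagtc
The E-box letters, which read the same on both strands, occurred once in the downstream Slc12a5 window, at position -36 from the start. They occurred once in the Slc12a7 window, at position -1, and not in the Slc12a4, Wnk1 or Stk39 windows or the upstream Slc12a5 window. Of 32851 mouse promoter windows of this length, 2349 (7.15%) held the E-box. The letters GCGNGGGCG, bound by EGR factors, were searched on both strands and were in none of these windows, against 1824 of all windows (5.55%). The E-box was thus present in a promoter of an exporter that fell and in one of an exporter that rose, and a match of letters is not a binding site.

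Total gene counts were 14299679 to 24022923 per library. Values are given as the deposited FPKM (fragments per kilobase of gene length and per sequenced fragments of the library) and as log2 fold changes ± SE from edgeR on counts. A call is an edgeR adjusted p under 0.05 over all genes tested. Day 21 replicate 2 stood apart from the other libraries, with a sample weight of 0.0583 in limma voom against 0.354 in day 0 replicate 1 and 1.02 to 2.03 in the others. In that library genes under 1 kb were higher than in the other day 21 libraries (median log2 difference 0.95) and genes of 6 kb or more were lower (median -0.31). Values without it are given beside the member results and list counts that it moved most. Summed FPKM of 10 microglia and macrophage markers was 53.7 to 58.5 at day 0, 734 to 744 at day 3 and 538 to 760 at day 21, and that of 20 pan-neuronal markers was 5075 to 5132, 2693 to 2756 and 3399 to 4219. In bulk tissue fewer cells of a type and less RNA per cell cannot be told apart.

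**Figure D1:**
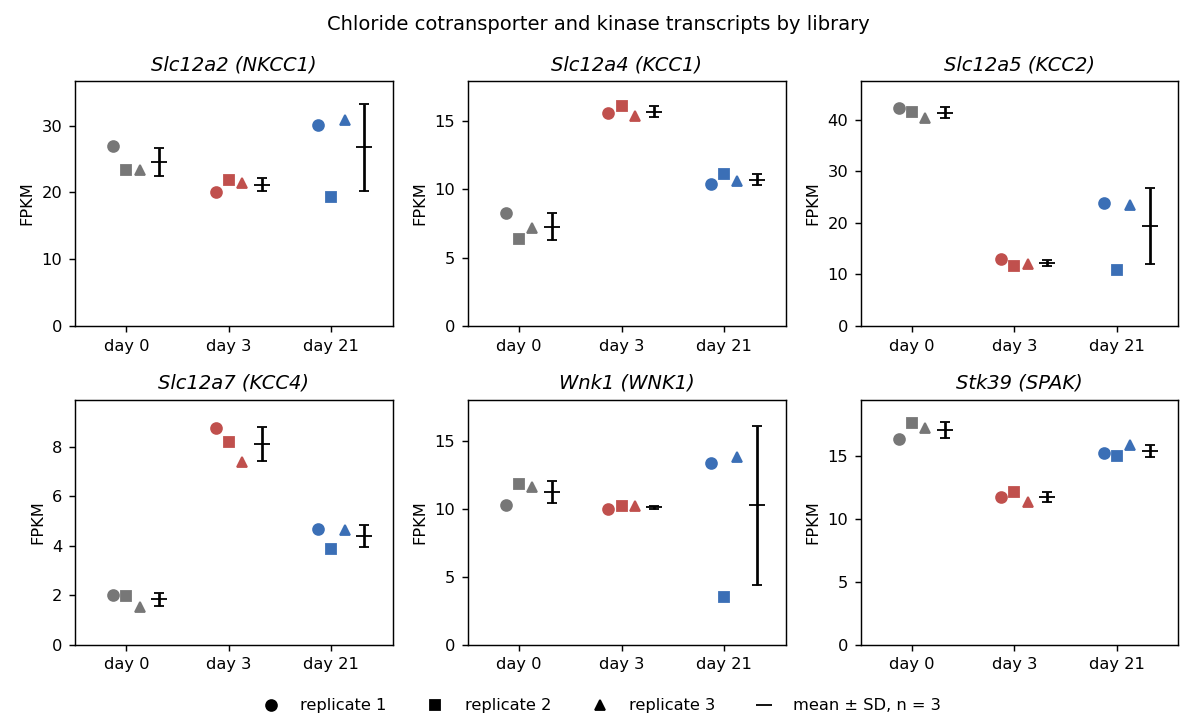
FPKM of the 6 genes by library (y axis) for day 0, day 3 and day 21 (x axis), with each replicate as a point and the mean ± SD of 3 libraries beside it. Slc12a5 was lower at day 3 than in every day 0 library, Slc12a4 and Slc12a7 were higher, and day 21 replicate 2 lay far below the other day 21 libraries for Wnk1 and Slc12a5.

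At day 3 after transection the KCC2 transcript had fallen while those of KCC1 and KCC4 had risen, and the SPAK kinase transcript was lower. Of the 6 genes, 4 passed the test for day 3 against day 0, 2 higher and 2 lower, where 44.3% of all genes tested passed (24.8% higher and 19.5% lower). For all 6 genes the day 3 and day 0 libraries did not overlap in FPKM, as for 67.5% of all genes tested. At day 21, 4 of the 6 did not overlap with day 0 (41.3% of all genes) and 3 did not overlap with day 3 (44.4% of all genes). At day 21 against day 0, 3 of the 6 passed, 2 higher and 1 lower, beside 29.2% of all genes (17.9% higher and 11.3% lower). At day 21 against day 3, 3 passed, 1 higher and 2 lower, beside 27.8% of all genes (11.7% higher and 16.1% lower). Without day 21 replicate 2 the 3 counts were 6, 5 and 6 of 6, where 61.2%, 47.5% and 49.3% of all genes passed.

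The importer Slc12a2 (ENSMUSG00000024597) differed less between days than Slc12a5, Slc12a4 or Slc12a7. Its FPKM was 27.0, 23.4 and 23.4 in day 0 replicates 1, 2 and 3, then 20.1, 21.9 and 21.5 at day 3, and 30.1, 19.3 and 30.9 at day 21. Every day 3 library was below every day 0 library, while the day 21 libraries lay on both sides, with replicate 2 the lowest of all 9. Day 3 averaged 21.1 ± 0.955 FPKM and day 0 24.6 ± 2.06 (SD, n = 3 each), a log2 fold change of -0.27 ± 0.18 that did not pass (edgeR adjusted p 0.255). Without day 21 replicate 2 the same log2 fold change, -0.27 ± 0.06, passed (edgeR adjusted p 0.00327), since the spread shared by all groups was then smaller. At day 21 the mean was 26.7 ± 6.50 FPKM, with a log2 fold change of 0.00 ± 0.18 against day 0 (edgeR adjusted p 0.993) and 0.27 ± 0.18 against day 3 (edgeR adjusted p 0.296). Without replicate 2 the day 21 values were higher, by log2 0.20 against day 0 (edgeR adjusted p 0.0333) and 0.47 against day 3 (edgeR adjusted p 0.00033). The direction of Slc12a2 at day 21 against day 0 thus rested on 1 library.

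Slc12a5 (ENSMUSG00000017740, GRCm38 chr2:164960802-164999731, + strand), the neuronal exporter, had the highest FPKM of the 6 genes at day 0. It stood at 42.3, 41.5 and 40.2 FPKM in the day 0 libraries, at 12.9, 11.7 and 12.1 at day 3, and at 23.8, 10.8 and 23.4 at day 21. The day 0 libraries were all above the rest, and day 21 replicates 1 and 3 lay between the days while replicate 2 was below every day 3 library. Against day 0 the day 3 level was 0.285-fold (95% interval 0.181 to 0.449), a log2 fold change of -1.81 ± 0.27 (edgeR adjusted p 0.000542). The day 21 level was 0.431-fold that of day 0 (95% interval 0.275 to 0.674), a log2 fold change of -1.22 ± 0.26 (edgeR adjusted p 0.00847). Without replicate 2 it was 0.528-fold, with a log2 fold change of -0.92 ± 0.06 (edgeR adjusted p 2.52e-06), and the transcript remained below day 0. Whether Slc12a5 recovered between day 3 and day 21 depended on that library. The log2 fold change of day 21 against day 3 was 0.60 ± 0.26 and did not pass with all libraries (edgeR adjusted p 0.124), and was 0.89 ± 0.06 without replicate 2 (edgeR adjusted p 2.91e-06).

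Slc12a4 (ENSMUSG00000017765, GRCm38 chr8:105943590-105966115, - strand), the widely expressed exporter KCC1, went the other way. Its FPKM was 8.31, 6.35 and 7.2 in the day 0 libraries, 15.6, 16.1 and 15.4 at day 3, and 10.4, 11.1 and 10.6 at day 21. The 3 days formed 3 separate ranges, with day 3 highest and day 21 between, and day 21 replicate 2 was close to the other day 21 libraries. The log2 fold change of day 3 against day 0 was 1.06 ± 0.11 (edgeR adjusted p 5.09e-05), and that of day 21 against day 3 was -0.62 ± 0.11 (edgeR adjusted p 0.00293). At day 21 the transcript was still above day 0 by 0.43 ± 0.11 (edgeR adjusted p 0.0153), a call that was lost without day 0 replicate 2 (edgeR adjusted p 0.0666) or day 0 replicate 3 (edgeR adjusted p 0.0552), without a filter on low counts (0.0529) and with only these 2 days in the fit (0.0654). Of the Slc12a4 exon bases 8.44% overlapped Gm16156 on the opposite strand, and no source states whether counting used strand. The other 5 genes shared no exon base with another gene in GENCODE M21.

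Slc12a7 (ENSMUSG00000017756, GRCm38 chr13:73763697-73816743, + strand), the exporter KCC4, was the lowest of the 6 at day 0 and had the largest log2 fold change of the 6 at day 3. It stood at 1.99, 1.98 and 1.53 FPKM in the day 0 libraries, at 8.77, 8.20 and 7.40 at day 3, and at 4.69, 3.87 and 4.62 at day 21. No library of one day overlapped with those of another. The day 3 level was 4.28-fold that of day 0 (95% interval 3.32 to 5.51), a log2 fold change of 2.10 ± 0.15 (edgeR adjusted p 5.46e-06). At day 21 it was 2.21-fold that of day 0, a log2 fold change of 1.14 ± 0.15 (edgeR adjusted p 0.000559), and lower than at day 3 by a log2 fold change of -0.96 ± 0.14 (edgeR adjusted p 0.00148). These 3 calls held under all 18 alternative settings run for each.

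Wnk1 (ENSMUSG00000045962, GRCm38 chr6:119923969-120038672, - strand), the kinase at the top of the cascade, showed no called change with all libraries. Its FPKM was 10.3, 11.8 and 11.7 at day 0, 9.97, 10.2 and 10.2 at day 3, and 13.4, 3.52 and 13.9 at day 21. Day 21 replicates 1 and 3 were the highest libraries and replicate 2 the lowest, at 0.258-fold the mean of the other 2. The log2 fold change was -0.21 ± 0.41 at day 3 against day 0 (edgeR adjusted p 0.711, 95% interval -1.22 to 0.80) and -0.25 ± 0.41 at day 21 against day 0 (edgeR adjusted p 0.697, 95% interval -1.26 to 0.76). At day 21 against day 3 it was -0.04 ± 0.41 (edgeR adjusted p 0.959). Without replicate 2 the direction of the last turned to 0.37 ± 0.08, which passed (edgeR adjusted p 0.00299), and day 3 was lower than day 0 by -0.21 ± 0.07 (edgeR adjusted p 0.0237). Day 21 against day 0 also turned, to 0.16 ± 0.08, which did not pass (edgeR adjusted p 0.1125).

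Stk39 (ENSMUSG00000027030, GRCm38 chr2:68210445-68472268, - strand) encodes SPAK, the kinase that WNK1 activates. It stood at 16.4, 17.6 and 17.3 FPKM in the day 0 libraries, at 11.8, 12.1 and 11.3 at day 3, and at 15.3, 15.0 and 15.9 at day 21. The 3 days did not overlap, with day 3 lowest and day 21 just under day 0. The day 3 level was 0.661-fold that of day 0, a log2 fold change of -0.60 ± 0.10 (edgeR adjusted p 0.00083). At day 21 the difference from day 0, -0.28 ± 0.10, did not pass (edgeR adjusted p 0.0557), and it passed without day 21 replicate 2 (edgeR adjusted p 0.0166). Day 21 was above day 3 by 0.32 ± 0.10 (edgeR adjusted p 0.0346), a call lost in 9 of 18 alternative settings, 7 of which left out 1 library. The ratio of Wnk1 to Stk39 FPKM averaged 0.864 at day 3 and 0.659 at day 0, without overlap (exact two-sided permutation p 0.1, the smallest that 3 against 3 libraries can give).

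The distance of day 21 replicate 2 from the other day 21 libraries differed between the 6 genes. Wnk1, whose length in the deposited FPKM was 40754 bases, stood at 0.258-fold the mean of the others, and Slc12a5, at 11910 bases, at 0.459-fold. Stk39 (7818 bases) stood at 0.963-fold, Slc12a2 (6520 bases) at 0.631-fold, Slc12a7 (5131 bases) at 0.832-fold and Slc12a4 (4817 bases) at 1.06-fold. The 2 genes longest by this measure stood lowest against the others, though Stk39 was nearly level. That order depends on the measure of length. By the union of annotated exons in GENCODE M21, Slc12a5 (7447 bases) is shorter than Slc12a2 (10920) and Slc12a7 (12669), which deviated less. Wnk1 is the longest by either measure. The part of gene length in the member results was not tested.

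**Figure D2:**
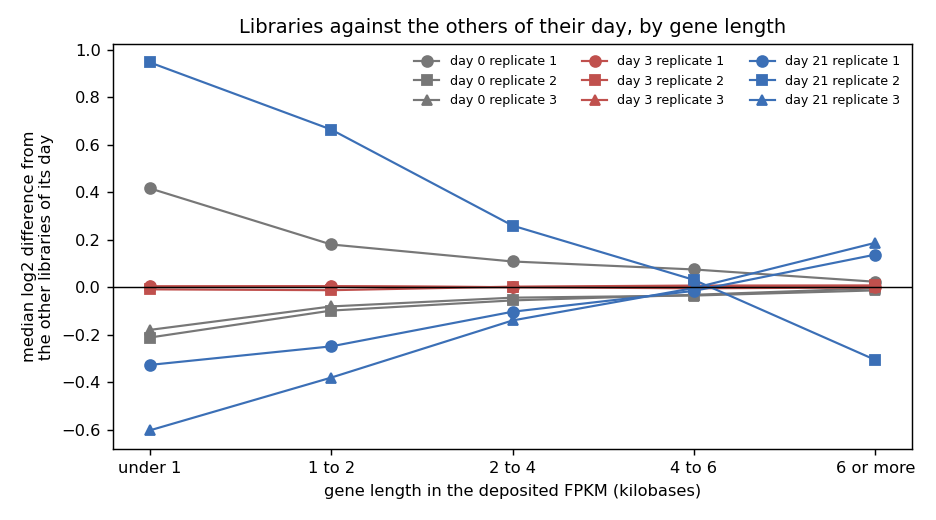
Median log2 difference of each library from the other 2 of its day (y axis) by gene length in the deposited FPKM (x axis, kilobases), for genes averaging 1 FPKM or more. Day 21 replicate 2 runs from 0.95 for genes under 1 kb to -0.31 for genes of 6 kb or more, while the day 3 libraries stay near 0.

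The ratio of Slc12a5 to Slc12a2 compares the neuronal exporter with the importer within 1 library, so that sequencing depth cancels. On the deposited FPKM it was 1.57, 1.77 and 1.72 in the day 0 libraries, 0.643, 0.535 and 0.563 at day 3, and 0.790, 0.562 and 0.757 at day 21. Every day 0 library was above every later one, and day 21 replicate 2 fell among the day 3 libraries. The ratio averaged 0.580 ± 0.056 at day 3 and 1.69 ± 0.11 at day 0, a log2 difference of -1.54 ± 0.10 (SE, n = 3 each, exact two-sided permutation p 0.1). At day 21 it averaged 0.703 ± 0.123, a log2 difference from day 0 of -1.28 ± 0.16 (exact two-sided permutation p 0.1). Day 21 and day 3 overlapped, with a log2 difference of 0.27 ± 0.17 (exact two-sided permutation p 0.3). The difference without day 21 replicate 2 was 0.42 and the days no longer overlapped (exact two-sided permutation p 0.2). Over the 36 exact tests made on ratios, shares and sums, a p of 0.1 became 0.129 after Benjamini-Hochberg adjustment, so none passed 0.05. The size of the difference between days came mostly from Slc12a5, since Slc12a2 moved by a log2 fold change of -0.27 at day 3 and 0.00 at day 21.

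Whether the ratio lay above or below 1 after transection depended on the length used for each gene. The deposited FPKM divides Slc12a5 by 11910 bases and Slc12a2 by 6520 bases, although the union of annotated exons in GENCODE M21 is 7447 bases for Slc12a5 and 10920 for Slc12a2. With exon union lengths the ratio averaged 4.52 ± 0.29 at day 0, 1.55 ± 0.15 at day 3 and 1.88 ± 0.33 at day 21. With the longest transcript of each gene it averaged 3.34 ± 0.21, 1.15 ± 0.11 and 1.39 ± 0.24. All 6 later libraries were under 1 with the deposited lengths and above 1 with either other length. The log2 differences between days are the same under each length, because a length multiplies every library alike.

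**Figure D3:**
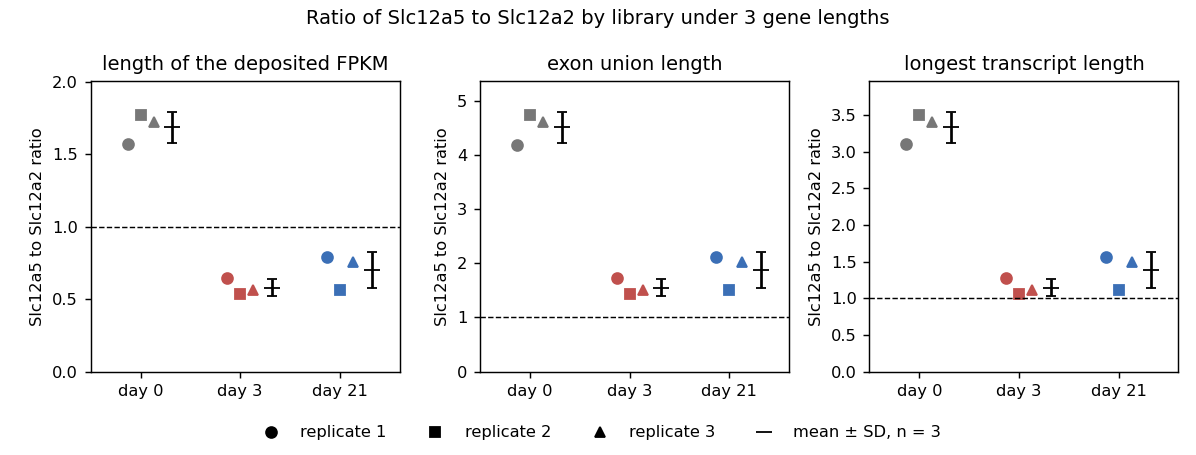
Ratio of Slc12a5 to Slc12a2 FPKM by library (y axis) for each day (x axis), with the gene lengths of the deposited FPKM, of the exon union and of the longest transcript. Points are replicates, the bars are mean ± SD of 3 libraries and the dashed line marks a ratio of 1. The day 0 libraries are highest in each panel, and the later ones lie below 1 in the first panel and above 1 in the others.

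The make-up of the transcripts of the 3 exporters described here differed between days, with a smaller part for the neuronal form after transection. Their summed FPKM averaged 50.5 ± 1.88 at day 0, 36.0 ± 1.21 at day 3 and 34.4 ± 7.44 at day 21 (SD, n = 3 each). The day 21 mean without replicate 2 was 38.7, above the day 3 libraries and below those of day 0. The sum depends on the gene lengths used. With exon union lengths and all libraries its day 21 mean lay above that of day 3, and both lay below day 0. Slc12a5 made up 80.4, 83.3 and 82.2% of that sum in the day 0 libraries, 34.7, 32.5 and 34.7% at day 3, and 61.2, 41.9 and 60.5% at day 21. The 3 days did not overlap, with the share lowest at day 3 and each pair of days at an exact two-sided permutation p of 0.1. The share of Slc12a4 averaged 14.4 ± 1.55% at day 0, 43.6 ± 1.55% at day 3 and 32.5 ± 9.24% at day 21, and that of Slc12a7 3.62 ± 0.446%, 22.5 ± 1.17% and 13 ± 1.72%. On the deposited lengths Slc12a4 thus exceeded Slc12a5 at day 3. That order turned with exon union lengths, where Slc12a5 held 48.3% and Slc12a4 43.6%, so the order of these 2 at day 3 cannot be read from the table. The day 3 share of Slc12a7 also depended on length, at 8.11% with exon union lengths. The day 21 shares without replicate 2 averaged 60.9% for Slc12a5, 27.1% for Slc12a4 and 12% for Slc12a7. With either length Slc12a5 held the largest mean share at day 0 and a smaller one at day 3.

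**Figure D4:**
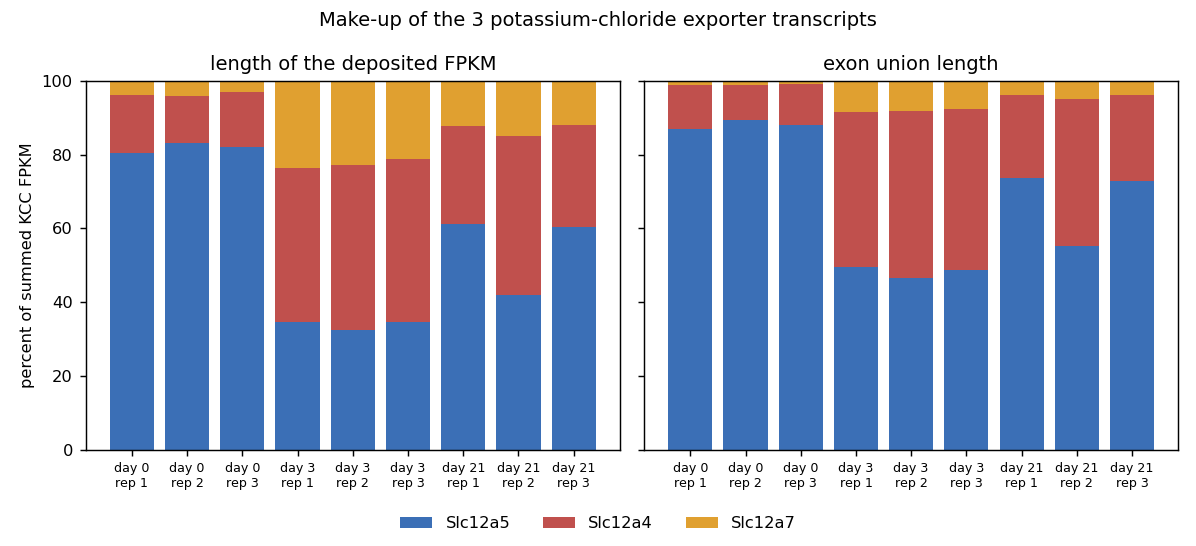
Percent of the summed FPKM of Slc12a5, Slc12a4 and Slc12a7 (y axis) held by each gene in every library (x axis), with the lengths of the deposited FPKM on the left and exon union lengths on the right. The Slc12a5 part is largest at day 0 and smallest at day 3 in both panels, and the Slc12a4 and Slc12a7 parts are larger at day 3 than at day 0.

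Set against the importer, the exporters also differed by kind. The ratio of the summed FPKM of the 3 exporters to Slc12a2 averaged 2.06 ± 0.095 at day 0, 1.71 ± 0.129 at day 3 and 1.29 ± 0.046 at day 21, with no overlap between days (exact two-sided permutation p 0.1 for each pair). These values are on the deposited lengths. With exon union lengths the ratio averaged 5.13 ± 0.26, 3.22 ± 0.23 and 2.79 ± 0.07, in the same order but with a larger relative fall by day 3. The ratio of Slc12a4 plus Slc12a7 to Slc12a2 averaged 0.370 at day 0, 1.13 at day 3 and 0.591 at day 21, again with no overlap (exact two-sided permutation p 0.1 for each pair), and 0.497 at day 21 without replicate 2. The second ratio was thus higher at day 3 than at day 0, where the Slc12a5 to Slc12a2 ratio was lower.

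Because KCC2 is a neuronal protein, Slc12a5 was set beside 20 pan-neuronal genes, whose transcripts also changed. At day 3 against day 0, 18 of the 20 fell and 1 rose, with a median log2 fold change of -0.997 against 0.01 over all genes tested, and at day 21 against day 0, 13 fell and 1 rose (median -0.52, against 0.02 over all genes). In the second, 16 fell and 1 rose without day 21 replicate 2, a share called of 85%, beside 47.5% of all genes. Of all genes tested, with all libraries, 19.5% fell at day 3 against day 0 and 11.3% at day 21 against day 0. The log2 fold change of Slc12a5 was below that of all 20 in both comparisons. Of the neuron subtype lists, those of motor and inhibitory neurons had day 3 medians closer to Slc12a5 than the pan-neuronal genes. The motor neuron markers had a median of -1.44 at day 3 against day 0 and 4 of 6 fell, and the inhibitory neuron markers had a median of -1.30 and all 6 fell. The excitatory neuron markers had a median of -0.70, further from Slc12a5, with 4 of 6 falling and 1 rising. The sensory neuron markers went the other way, with a median of 6.85 and 7 of 8 rising. At day 3, 1 of 6 motor neuron, 1 of 6 inhibitory neuron and 3 of 16 GABA-A and glycine receptor genes had a lower log2 fold change than Slc12a5. The receptor list includes the scaffold gene Gphn. No excitatory or sensory neuron marker was lower than Slc12a5. Of all genes tested, 0.637% had a lower log2 fold change at day 3 against day 0 and 0.582% at day 21 against day 0, and the second share was 1.77% without day 21 replicate 2. Per library, log2 FPKM of Slc12a5 minus the mean of the 20 genes was -1.42, -1.44 and -1.54 at day 0, -2.30, -2.44 and -2.38 at day 3, and -1.88, -3.18 and -1.90 at day 21. The day 0 libraries were above all later ones, and day 21 replicate 2 was the lowest. The difference was -0.91 ± 0.06 for day 3 against day 0 (SE, exact two-sided permutation p 0.1) and -0.85 ± 0.43 for day 21 against day 0 (exact two-sided permutation p 0.1). The second was -0.42 without day 21 replicate 2. With all libraries day 21 overlapped with day 3 (difference 0.05 ± 0.43, exact two-sided permutation p 1.0). Without that replicate the difference of day 21 from day 3 was 0.49, with no overlap (exact two-sided permutation p 0.2). The part of the neuronal markers in the fall of Slc12a5 was not tested beyond these values.

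**Figure D5:**
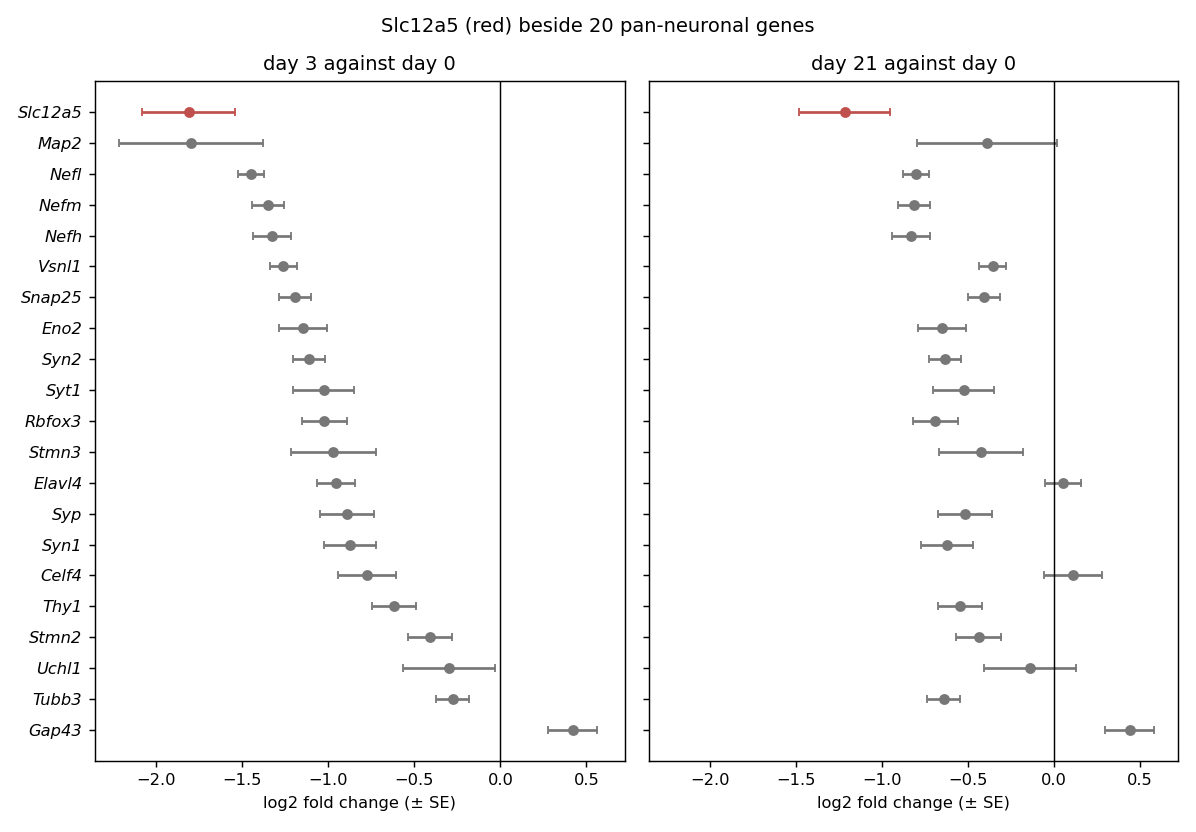
Log2 fold change ± SE (x axis) of Slc12a5 in red and of 20 pan-neuronal genes in grey (y axis), for day 3 against day 0 on the left and day 21 against day 0 on the right, from edgeR on all 9 libraries. Slc12a5, at -1.81 and -1.22, lies furthest to the left in each panel, with Map2 close to it at day 3.

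The markers of other cell types moved over the same interval as Slc12a4 and Slc12a7. At day 3 against day 0 all 10 microglia and macrophage markers, all 8 pericyte and fibroblast markers and 6 of 7 Schwann cell markers rose. The median log2 fold changes of these lists were 2.27, 3.54 and 1.89. Of all genes tested, 24.8% rose in that comparison. Summed FPKM of the pericyte and fibroblast markers was 65.5 to 66.5 at day 0, 649 to 652 at day 3 and 323 to 391 at day 21. That of the Schwann cell markers was 212 to 260 at day 0, 704 to 723 at day 3 and 339 to 415 at day 21. Like Slc12a4 and Slc12a7, both sums were highest at day 3, lower at day 21 and lowest at day 0. Endothelial markers summed to 64.3 to 75.6 at day 0, 174 to 183 at day 3 and 72.8 to 84.6 at day 21, with 6 of 9 higher at day 3 than at day 0. No marker of these 4 lists was at 0 in all libraries of a day, and their part in the rise of the 2 exporters was not tested. Markers of sensory neurons, whose cell bodies lie in the dorsal root ganglia, summed to 11.3 to 14.1 at day 0, 52.2 to 53.4 at day 3 and 20.6 to 29.4 at day 21. Of these 8 markers 7 rose at day 3 against day 0 (median log2 fold change 6.85), and 1 was at 0 in all day 0 libraries. Their part in the rise of the exporters and in the neuronal comparison was not tested. Oligodendrocyte markers summed to 2150 to 2311 at day 0, 2015 to 2040 at day 3 and 2062 to 2189 at day 21. Skeletal muscle markers reached 107 to 178 at day 21 and were 13.7 to 17.7 at day 0, and their part was not tested.

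The levels of the 6 genes across the 9 libraries followed a few patterns, given as a description over libraries that share days and depth. Slc12a4 and Slc12a7 had a Pearson r of 0.97 in log2(FPKM + 1), and Slc12a4 had an r of -0.90 with Slc12a5 and -0.96 with Stk39. Slc12a5 and Stk39 had an r of 0.84, while Wnk1 and Slc12a7 had one of -0.06. Among 6884 genes that averaged 5 FPKM or more, profiles close to that of Slc12a5 were those of Chd5, a chromatin remodeller of neurons, and Wdr7 (both r 0.996). The nearest to Slc12a7 were Cd44, a surface receptor for hyaluronan (r 0.995), Loxl2, an enzyme that crosslinks collagen (0.995), and Sel1l3 (0.992). The nearest to Slc12a4 were Scamp2 (r 0.996), Fibin (0.995) and Tspan4 (0.993), and those to Stk39 were Snap25, a protein of synaptic vesicle release (0.992), Ttc7b (0.992) and Sparcl1 (0.992). Wnk1 was nearest to Daam2 (r 0.997), Tnr (0.993) and Zswim6 (0.990), and Slc12a2 to Trappc8 (0.992), Ipo7 (0.976) and Spag9 (0.968).

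Other genes of the SLC12 family were set beside the members. Slc12a9 averaged 8.22 FPKM at day 3 and 5.08 at day 0, a log2 fold change of 0.64 (edgeR adjusted p 0.00656). Slc12a8 was at most 0.301 FPKM in every library, without a call, and Slc12a1 and Slc12a3, the transporters of the kidney tubule, were too low to be tested.

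Of 16 other genes of the WNK pathway, 5 rose and 2 fell at day 3 against day 0, 2 rose and none fell at day 21 against day 0, and 3 rose and 4 fell at day 21 against day 3. The medians of their log2 fold changes were -0.08, -0.05 and -0.15, against 0.01, 0.02 and 0.02 over all genes. Without day 21 replicate 2, 5, 3 and 7 of the 16 rose and 5, 3 and 5 fell. The share called at day 3 against day 0, 43.8%, was close to the 44.3% of all genes tested. At day 21 it was 12.5% against day 0 and 43.8% against day 3, beside 29.2% and 27.8% of all genes. Without day 21 replicate 2 the 3 shares were 62.5%, 37.5% and 75%, beside 61.2%, 47.5% and 49.3% of all genes. Wnk2 fell to 6.66 FPKM at day 3, against 12.6 at day 0, a log2 fold change of -0.98 ± 0.22 (edgeR adjusted p 0.0065). Wnk4, a regulator of salt transport in the kidney, rose to 2.11 FPKM at day 3, against 1.25 at day 0 (log2 fold change 0.71 ± 0.13, edgeR adjusted p 0.00204), and was 1.42 FPKM at day 21. Wnk3 averaged 0.605 FPKM at day 3 and 0.962 at day 0 without a call (edgeR adjusted p 0.0531), and at day 21 it was above day 3 (log2 fold change 0.89 ± 0.27, edgeR adjusted p 0.0357). That difference missed the threshold in 8 of 17 alternative settings. At day 3 Wnk2 thus fell while Wnk4 rose, and of their exon bases 7.38% in Wnk4 and 4.94% in Wnk3 overlapped another gene. Oxsr1, which encodes the SPAK relative OSR1, averaged 12.9 FPKM at day 3 and 15.8 at day 0 (log2 fold change -0.35 ± 0.14, edgeR adjusted p 0.0762), and it passed without day 21 replicate 2 (edgeR adjusted p 0.00195). Sgk1, a stress- and steroid-induced kinase that acts on WNK signalling, rose to 28.8 FPKM at day 3, against 10.1 at day 0 (log2 fold change 1.46 ± 0.09, edgeR adjusted p 2.25e-06), and was 9.18 at day 21. Sgk3, its relative, rose to 1.2 FPKM at day 3, against 0.367 at day 0 (log2 fold change 1.66 ± 0.15, edgeR adjusted p 2.03e-05).

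Of 17 genes known to regulate or bind KCC2, 5 rose and 4 fell at day 3 against day 0, and 4 rose and 3 fell at day 21 against day 0, and 3 rose and 4 fell at day 21 against day 3. Without day 21 replicate 2, 6, 5 and 8 rose and 6, 6 and 7 fell. The share called at day 3 against day 0 was 52.9%, beside 44.3% of all genes. At day 21 it was 41.2% against day 0 and 41.2% against day 3, beside 29.2% and 27.8% of all genes. Without day 21 replicate 2 the 3 shares were 70.6%, 64.7% and 88.2%, beside 61.2%, 47.5% and 49.3% of all genes. Epb41l1, which links KCC2 in spines to actin, fell to 23.0 FPKM at day 3, against 53.9 at day 0 (log2 fold change -1.28 ± 0.23, edgeR adjusted p 0.00158). Pacsin1, an endocytic adaptor that binds KCC2, fell to 45.7 FPKM at day 3, against 99.2 at day 0 (log2 fold change -1.17 ± 0.12, edgeR adjusted p 4.57e-05). Igf1, a growth factor, rose to 3.28 FPKM at day 3 and 4.17 at day 21, against 0.561 at day 0, with log2 fold changes of 2.49 ± 0.11 and 2.77 ± 0.11 (edgeR adjusted p 2.99e-07 and 8.28e-07). Prkcd, a protein kinase C, rose to 7.06 FPKM at day 3, against 2.26 at day 0 (log2 fold change 1.59 ± 0.11, edgeR adjusted p 3.58e-06). Rest, which encodes a repressor of neuronal genes and was named after its values were seen, averaged 2.56 FPKM at day 3 and 1.22 at day 0 (log2 fold change 1.02 ± 0.16, edgeR adjusted p 0.000673). Usf1 and Egr4, the factors whose letters were searched above, gave no call in any of the 3 comparisons with all libraries. Egr4 was near the floor, at 0.163 to 0.672 FPKM and 5 to 21 counts per library, so its lack of a call says little. Usf1 was lower, once day 21 replicate 2 was left out, at day 21 than at day 0 (log2 fold change -0.44 ± 0.11, edgeR adjusted p 0.0079) and than at day 3 (-0.30 ± 0.11, edgeR adjusted p 0.0427).

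The receptors that pass chloride fell with the exporter of neurons. Of 16 GABA-A and glycine receptor genes, counting Gphn, which encodes a scaffold and not a subunit, 12 fell and none rose at day 3 against day 0 (median log2 fold change -1.26). Of all genes tested, 19.5% fell in that comparison. At day 21 against day 3, 10 rose and none fell (median 1.02), where 11.7% of all genes rose. Without day 21 replicate 2, 15 rose and none fell at day 21 against day 3 (median 1.22). The share called was then 93.8%, beside 49.3% of all genes. Glra1, the main adult glycine receptor subunit of the cord, fell to 6.59 FPKM at day 3, against 48.7 at day 0, a log2 fold change of -2.94 ± 0.28 (edgeR adjusted p 3.73e-05), and was 22.2 at day 21. Glrb, its partner subunit, averaged 13 FPKM at day 3 and 34.6 at day 0 (log2 fold change -1.47 ± 0.11, edgeR adjusted p 7.16e-06). At day 21 against day 0, 3 of the 16 were lower and 1 higher with all libraries, and 5 were lower and 5 higher without day 21 replicate 2. The shares called were 25% and 62.5%, beside 29.2% and 47.5% of all genes. For day 21 against day 0 Slc12a5 had a log2 fold change of -1.22, beside a median of -0.20 over these receptor genes, and of -0.92 beside -0.03 without replicate 2. Whether Slc12a5 and the receptors differed in their return was not tested.

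Genes of other chloride transport and of the sodium-potassium pump, which maintains the gradients that the cotransporters use, moved both ways. Of 23 tested genes of other chloride transport, 4 rose and 7 fell at day 3 against day 0, 2 rose and 7 fell at day 21 against day 0, and 2 rose and 4 fell at day 21 against day 3. Without day 21 replicate 2, 5, 4 and 8 rose and 8, 9 and 8 fell. The share called at day 3 against day 0 was 47.8%, beside 44.3% of all genes. At day 21 it was 39.1% against day 0 and 26.1% against day 3, beside 29.2% and 27.8% of all genes. Without day 21 replicate 2 the 3 shares were 56.5%, 56.5% and 69.6%, beside 61.2%, 47.5% and 49.3% of all genes. Ano6, a lipid scramblase and ion channel, rose to 28.3 FPKM at day 3, against 8.36 at day 0 (log2 fold change 1.71 ± 0.13, edgeR adjusted p 8.46e-06). Slc4a10, a neuronal bicarbonate transporter, fell to 3.07 FPKM at day 3, against 6.73 at day 0 (log2 fold change -1.18 ± 0.25, edgeR adjusted p 0.00411), and was 7.18 at day 21. Of 10 genes of the pump, 3 rose and 3 fell at day 3 against day 0, 2 rose and 4 fell at day 21 against day 0, and 1 rose and 3 fell at day 21 against day 3. The shares called were 60%, 60% and 40%, beside 44.3%, 29.2% and 27.8% of all genes. Leaving out day 21 replicate 2, 3 rose and 5 fell at day 21 against day 0, and 2 rose and 4 fell against day 3. These shares were 80% and 60%, beside 47.5% and 49.3% of all genes. The subunit Atp1b1 fell to 217 FPKM at day 3, against 507 at day 0 (log2 fold change -1.27 ± 0.10, edgeR adjusted p 9.77e-06), and Fxyd5, a regulator of the pump, rose to 12.1 FPKM, against 1.13 (log2 fold change 3.37 ± 0.25, edgeR adjusted p 8.29e-06).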

How the data were processed

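RNA with a poly-A tail was sequenced as paired-end TruSeq libraries, per the labels' protocols. HISAT2 and StringTie are listed in the submitters' processing notes, with no version, beside the human build GRCh38, although gene positions in the table match mouse build GRCm38. The authors deposited whole-number counts per gene, not normalized, and FPKM values, per the file headers. Of 11986 genes that had 50 or more counts in each library, 66.3% had a length in the deposited FPKM equal, within 1 base, to the sum of distinct annotated exons in GENCODE M21, which counts shared bases more than once, so levels of different genes depend on this length. Among the members, Wnk1 and Stk39 had a deposited length equal to that sum, and the cotransporters did not. The deposited length was 6520 bases for Slc12a2, where the sum is 11000, and 4817 for Slc12a4, where it is 5380. It was 11910 for Slc12a5, where the sum is 12401, and 5131 for Slc12a7, where it is 18054. The members and gene lists were chosen with earlier results of these data known.

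The counts of all 9 libraries entered 1 fit in edgeR 4.0.16 in R 4.3.3 (TMM scaling, filterByExpr, robust quasi-likelihood test, 6 residual degrees of freedom, Benjamini-Hochberg over 16494 genes). The common biological coefficient of variation was 0.205. SE is the absolute log2 fold change over the square root of F, and intervals are 95%. Ratios and shares were compared by exact two-sided permutation tests over libraries. The pan-neuronal mean used log2(FPKM + 0.1). Day numbers 3 and 21 come from the titles, and day 0 was assigned to the group titled N as described above. From each list, up to 4 called genes with at least 1 FPKM in a group and the largest changes could be named, with the other SLC12 and WNK genes, and for likeness the 3 genes of highest Pearson r. Some genes that this rule took are not reported here. Alternatives were DESeq2 1.42.0, limma 3.58.1 on log2(FPKM + 1) or with voom sample weights, other scalings and filters, the replicate number as a block, only 2 groups, and each library left out in turn. Gene lengths, the KCC shares and the lists and ratios without day 21 replicate 2 were alternatives added after seeing the data. The scripts were tested on simulated data.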

Additional observations from a re-analysis of the deposited data

How the results depend on the processing

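Of 324 values of the 6 genes under alternatives, 295 kept their side of the threshold, 13 lost a call and 14 gained one. The other 2 changed sign and passed. The 2 were Wnk1 at day 21 against day 3 (-0.04 with all libraries), at 0.33 with voom sample weights, which give day 21 replicate 2 little weight, and at -0.318 to 0.37 with 1 library left out, the highest without that replicate. Small values could also change sign without passing. At day 21 against day 0, Wnk1 ranged over -0.53 to 0.16 under the alternatives, and Slc12a2 over -0.12 to 0.22. Called members at day 21 numbered 5 against day 0 and 6 against day 3 with voom sample weights, and 2 to 5 and 2 to 6 with 1 library left out. All genes called numbered 7307, 4813 and 4585 for day 3 against day 0, day 21 against day 0 and day 21 against day 3. With a filter of 5 FPKM in 3 libraries, which tests fewer genes, they were 3758, 2086 and 2505. With voom sample weights they were 8323 for day 21 against day 0 and 9294 for day 21 against day 3, and with only 2 groups in the fit 2909 for day 21 against day 0, where the cause was not tested. With 1 library left out they ranged over 5879 to 10245, 3273 to 7955 and 2893 to 8246, each highest without day 21 replicate 2. Slc12a5 relative to pan-neuronal genes at day 21 against day 3 ranged over -0.17 to 0.49 with 1 library left out. Wnk3 and Wnk4 have no value under the filter of 5 FPKM.

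Same-numbered libraries deviated from their group means with correlations of -0.146 to 0.107, and differently numbered ones with -0.218 to 0.227. Same-numbered libraries were thus no more alike, but deviations from means of 3 libraries cannot exclude a pairing. With the replicate number as a block 6589, 3834 and 3640 genes were called, and the call of Stk39 at day 21 against day 3 was lost (edgeR adjusted p 0.086). The paired sign-flip test of the log2 ratio of Slc12a5 to Slc12a2 gave an exact p of 0.25 for each comparison. That is the smallest p that 3 pairs can give, so this test could not pass and decides nothing. With 3 libraries per day and 1 of them apart at day 21, small changes of Slc12a2, Wnk1 and Stk39 could not be settled at day 21.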
